A study of Mus musculus with 75 samples.

Results

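The 6 libraries of a C57BL/6 line of primordial germ cell-like cells (PGCLCs) hold RB and CT at culture day 2 and again at day 9. They were chosen by their labels, as 6 of the 75 libraries of the series, and each is the single library of its group. PGCLCs are cells with the features of early germ cells, induced in aggregates from embryonic stem cells by way of epiblast-like cells. All 6 come from cells with the transgenes Prdm1-mVenusTg/0 and Dppa3-ECFPTg/0 and the allele Gtrosa26tm1Sor/0, and were made from total RNA amplified at the 3' end from 1 ng. The library d4c0 is of culture day 0, c0CT and c0RB are of day 2, c7 is of day 7, and c7CT and c7RB are of day 9. Day 0 cells were sorted as BV(+), and cultured cells as SC(+), the terms of the labels for the reporters. Culture took place on mitomycin C-treated m220 feeder cells with forskolin and rolipram, so the controls carry these agents too.

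The labels do not spell out CT, RB, c0 or c7. In the study RB stands for retinoic acid given with a bone morphogenetic protein (BMP), and CT for cells without them. The labels place the start of the female-fate factors at culture day 3 for all PGCLCs, which a library of day 2 cannot have had. The titles are read here as factors from day 0 to day 2 (early, c0RB minus c0CT) and from day 7 to day 9 (late, c7RB minus c7CT). The reference lines are 129S1:C57BL/6 PGCLCs of both reporter transgenes, with 2 libraries in each group used here, and DBA/2:C57BL/6 PGCLCs of the same reporters, wild type or Stra8-/- (lines SK1, SK2 and SK3). With 1 library in a group no difference below was tested, and counting intervals cover counting error only.

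Retinoic acid is made from retinol by dehydrogenases, carried in the cell by binding proteins, and broken down by enzymes of the Cyp26 family. It acts through receptor pairs of a retinoic acid receptor and a retinoid X receptor, which bind direct repeats in DNA and switch on genes of retinoid breakdown and transport among others. BMPs act through receptor kinases and Smad proteins, and the Id genes are their textbook targets. In the fetal ovary retinoic acid is known for inducing Stra8, a gene required for entry into meiosis, and female germ cells then load the cohesin Rec8 and the synaptonemal complex proteins.

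Depth of the 6 libraries, estimated from the value of a single read, ran from 2.17 to 4.14 M reads, so that 3 reads were worth 0.724 to 1.38 RPM, the unit of the deposited values. Genes above 0 numbered 13641 to 15933. A gene was kept where it reached 5 RPM in at least 1 of the 6 libraries (11279 genes), and differences are of log2(RPM + 1), a scale that understates folds of low genes. Germ cell identity was checked on its markers: Prdm1 ran from 69.8 to 133 RPM, Tfap2c from 61.3 to 199 RPM and Dppa3 from 755 to 1491 RPM. Prdm1 and Dppa3 are the genes of the reporters used in the sort. Dnd1 ran from 43.1 to 174 RPM, and Nanos3 was low, from 2.17 RPM in c7CT to 13.4 RPM in d4c0. Dazl and Ddx4 were lowest in d4c0, at 2.31 and 5.54 RPM. Of 14 gonadal somatic cell markers 4 to 9 were at 0 in a library, with Foxl2, Nr5a1 and Amh at 0 in all 6, and they summed to 3.69 to 42.5 RPM, of which Star reached 12.1 and Inhba 14.48 RPM. Of 11 blood and endothelium markers 5 to 10 were at 0 in a library, and the sum of 59.6 to 155 RPM was nearly all Pecam1 (59.6 to 154 RPM), a surface protein. Among fibroblast markers, Col3a1, a collagen of fibroblasts, reached 83.0 RPM in c0CT.

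The library labelled c7RB stood apart from its line. Over the genes kept, its Spearman rho was 0.989 with the SK2 library of Stra8-/- at day 7 under RB, and 0.904 with c7CT, the highest of the 5 other C57BL/6 libraries. The 5 other libraries correlated with each other at 0.900 to 0.977, and the 19 replicate pairs of the series at 0.959 to 0.982. The remaining Stra8-/- libraries of day 7 came next, at 0.970 to 0.973. These points share the 3'-end assay and the genes, and they are a description.

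Other measures of likeness were taken on the same genes. Of the genes kept, 79 (0.7004%) differed by at least 1 on the log2 scale between the library labelled c7RB and the SK2 library, against 3.26% to 12.51% between replicates. The squared difference of reads over its counting variance had a median of 0.976 for that pair, below the 1.16 to 2.01 of the replicate pairs. Its mean, 4.46, was within the 3.03 to 13.51 of the replicate pairs. Spike-in transcripts stood at 9.17 RPM in the library labelled c7RB and at 3.23 RPM in the SK2 library, against 21050 to 38040 RPM in the 5 other C57BL/6 libraries. Of the 24 DBA/2:C57BL/6 libraries, 14 also held under 2000 RPM.

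Genes that separate the lines were chosen without the library labelled c7RB. For 5 genes there was a gap of at least 2 on the log2 scale between the 5 other C57BL/6 libraries and all DBA/2:C57BL/6 libraries, and the library labelled c7RB lay nearer the DBA/2:C57BL/6 libraries at 5 of 5. Cap1, an actin-binding protein gene, was at 0 to 3.10 RPM in the 5, at 35.4 to 102 RPM in the DBA/2:C57BL/6 libraries, and at 50.2 RPM in the library labelled c7RB. G530011O06Rik was at 17.3 to 30.5 RPM in the 5, at 0 to 2.55 RPM in the DBA/2:C57BL/6 libraries, and at 1.21 RPM in the library labelled c7RB. With a gap of 1 the count was 14 of 14. Against the 129S1:C57BL/6 line there were 6 such genes at a gap of 2, and the library labelled c7RB lay nearer the 5 others at 2 and nearer 129S1:C57BL/6 at 4. Stra8 itself stood at 27.5 RPM in the library labelled c7RB, at 29.3 RPM in the SK2 library, at 30.04 and 33.3 RPM in the SK1 libraries and at 204 RPM in SK3, against 1415 and 1439 RPM in wild type at day 7 under RB. Every late difference therefore sets c7CT against a library whose label and content disagree, and the factors, the line, the Stra8 genotype and the day cannot be told apart in it. Without that library no late difference can be formed, so the late part is given after the early one, beside the Stra8-/- values.

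**Figure D1:**
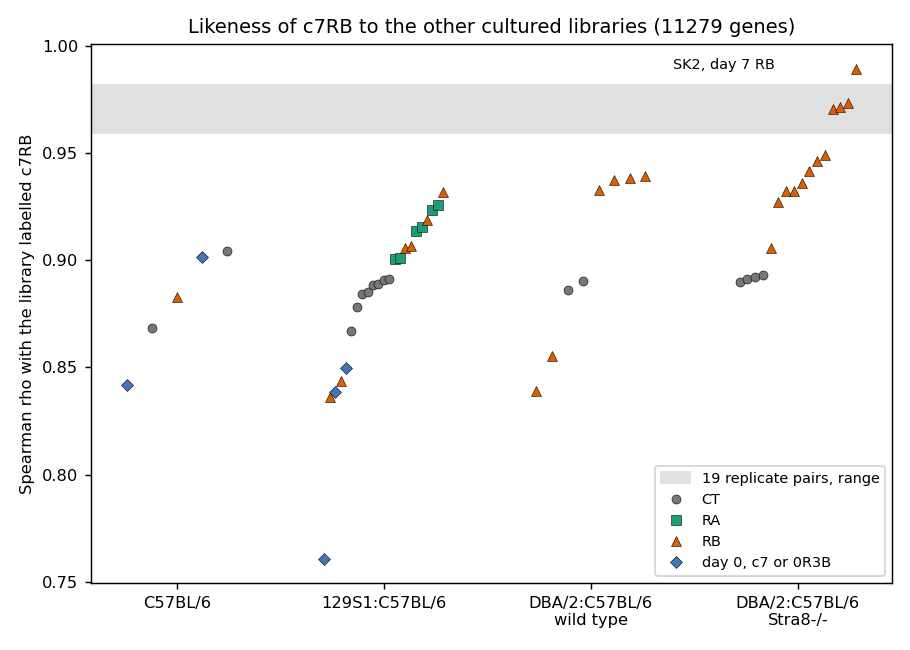
Spearman rho (y axis) of the library labelled c7RB with each other PGCLC library, by line (x axis), with 1 point per library and the range of 19 replicate pairs in grey. The SK2 library of day 7 under RB (0.989) lies above the grey band of 0.959 to 0.982, and the C57BL/6 libraries lie below it.

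Both Cyp26a1 and Rarb, at the head of the early difference, carry a direct repeat of the kind that retinoic acid receptor pairs bind, and it is shown because few promoters hold it. The letters searched on both strands, GTTCA and then AGTTCA after 5 bases of any kind, were chosen after the early values were seen. They were found in 9 of 32851 RefSeq promoter windows (0.0274%) of the 250 bases before a start site in GRCm38.p6. Of these windows 3 belong to genes kept, Cyp26a1, Rarb and Blvrb, a biliverdin reductase gene. Capitals mark the repeat, with 6 bases on each side, read 5′ to 3′ on the strand of the gene, where Cyp26a1 and Blvrb hold it on the opposite strand.
Cyp26a1: taaagaTGAACTTTGGGTGAACtaattt
Rarb: ggaaggGTTCACCGAAAGTTCActcgca
Blvrb: aaccttTGAACTGGCTTTGAACtcatag
The windows lie at chr19:37697770-37697797 (plus strand), chr14:16575507-16575534 (minus strand) and chr7:27452393-27452420 (plus strand). Counted back from the start site of its window, the repeat covers bases 32 to 17 in Cyp26a1, 52 to 37 in Rarb and 19 to 4 in Blvrb. In Cyp26a1 and Rarb the stretch shown lies inside the gene span given below, so that start site is not the outermost of the gene. Blvrb was at 9.51 RPM in c0CT and 15.1 RPM in c0RB, a log2 difference of 0.62. The windows of Dhrs3, Lrat, Meis1, Stra8 and Rec8 did not hold these letters, and Crabp2 was not among the genes matched. The form with AGGTCA on both sides of 5 bases was in 0.00913% of windows and in none of these.

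In the early pair, 343 of the 11279 genes kept were higher in c0RB by at least 1 on the log2 scale (3.04% of genes) and 491 were lower (4.35%). Together they make 7.39%, while the 2 replicates of a group in the 129S1:C57BL/6 line differed that much at 3.26% to 5.28% of the same genes (11 groups). Among genes with at least 20 RPM in the higher library, 35 were higher and 123 lower (2.34%), against 0.415% to 1.99% between those replicates. The 8 replicate pairs of the DBA/2:C57BL/6 line spread wider, from 3.67% to 12.51% over all genes kept and from 0.421% to 5.61% at 20 RPM. Of the 19 replicate pairs 4 differed at more genes than the early pair, and at 20 RPM 3 did. Each of the 4 pairs holds a library of 1.08 to 1.38 M reads, against 3.31 M in c0CT and 3.71 M in c0RB. The part of depth was not tested. Over all genes kept, the early share was thus above the 129S1:C57BL/6 pairs, and within the range of all 19 only through these 4. The split depended on scaling: the median gene differed by -0.14, and after the medians were set equal 562 genes were higher and 284 lower.

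**Figure D2:**
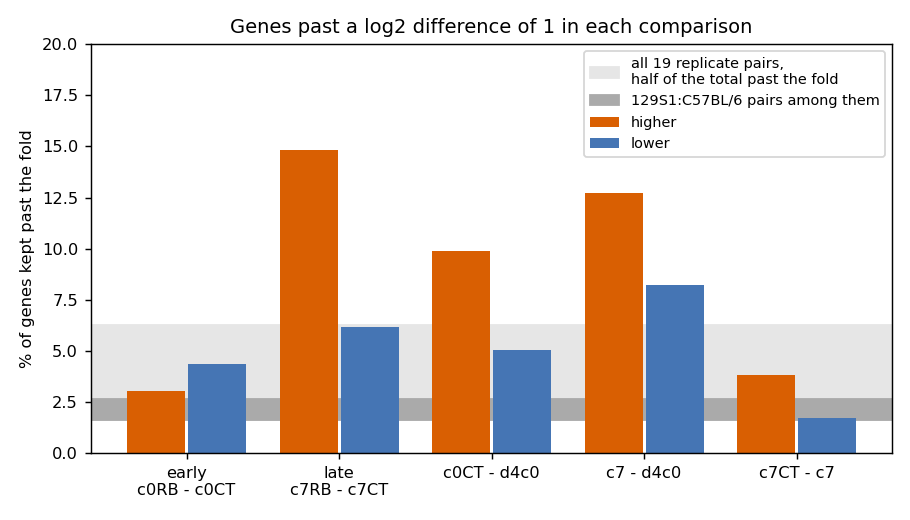
Percent of the 11279 genes kept (y axis) that were higher or lower by at least 1 on the log2 scale in each comparison of C57BL/6 libraries (x axis, 1 library against 1). The grey bands show the total share of replicate pairs divided evenly between both directions, dark for the 11 pairs of the 129S1:C57BL/6 line (1.63% to 2.64%) and light for all 19 pairs (up to 6.25%); the early bars (3.04% and 4.35%) and the late lower bar (6.17%) lie within the light band and the late higher bar (14.8%) above it.

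Genes of retinoid metabolism and reception were among those higher early. Of 16 members kept, 6 were higher in c0RB and 0 lower, against 3.04% and 4.35% of all genes, with a median difference of 0.61 against -0.14 over all genes. The list was written with results of these data known, so its count is a description.

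Cyp26a1 (Entrez 13082, chr19:37697738-37701536), the enzyme that breaks down retinoic acid, was at 0 RPM in d4c0, 0.604 in c0CT, 11.3 in c0RB, 17.2 in c7, 17.4 in c7CT and 192 in the library labelled c7RB. The early step was from 2 to 42 reads, a ratio of 18.8 with a 95% counting interval of 4.88 to 160. By day 7 the gene stood at 17.2 RPM with no factors named in the label.

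Rarb (Entrez 218772, chr14:16430839-17082331), a retinoic acid receptor, was at 0.923 RPM in d4c0, 0.604 in c0CT, 8.63 in c0RB, 2.14 in c7, 0.931 in c7CT and 36.2 in the library labelled c7RB. It rested on 2 and 32 reads early, a ratio of 14.3 (3.65 to 123). It was low in each library without RB and high in both RB libraries.

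Crabp2, a carrier of retinoic acid to its receptor, was at 5.08, 1.51, 11.3, 6.43, 2.79 and 15.4 RPM in the same order of libraries, an early ratio of 7.504 (2.97 to 24.3). Lrat, which stores retinol as esters, had 2 reads in c0CT and 17 in c0RB, a ratio of 7.59 (1.80 to 67.8). Dhrs3, which returns retinal to retinol, had 0 reads in c0CT and 11 in c0RB, at least 3.28-fold higher when set against 3 reads per library. Other receptors were closer: Rara was at 4.83 and 8.36 RPM and Rarg at 4.83 and 3.24 RPM in c0CT and c0RB.

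Of 21 retinoic acid targets kept, 8 were higher early and 0 lower (all genes 3.04% and 4.35%), with a median of 0.34 against -0.14 over all genes. Among the 8 are the retinoid genes Cyp26a1, Rarb, Dhrs3 and Crabp2, which both lists hold. Meis1, a partner of Hox proteins, had 0 and 16 reads, at least 4.76-fold higher. From the 34 Hox genes measured, 7 were kept, each through the library labelled c7RB alone. Of these, 3 were higher early and 0 lower (all genes 3.04% and 4.35%). With a pseudocount of 5 RPM in place of 1, 4 of the retinoic acid targets were higher.

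Stra8 (Entrez 20899, chr6:34920163-34939344), itself a retinoic acid target, was not part of this early group. It was at 0.462 RPM in d4c0, 0 in c0CT, 0.270 in c0RB, 1.07 in c7, 24.5 in c7CT and 27.5 in the library labelled c7RB. The c0RB value is 1 read, and 3 reads in that library would be 0.809 RPM. Rec8 was at 11.54, 4.53, 3.78, 5.09, 12.1 and 134 RPM, with 15 and 14 reads in the early pair (ratio 0.834, 0.373 to 1.85).

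**Figure D3:**
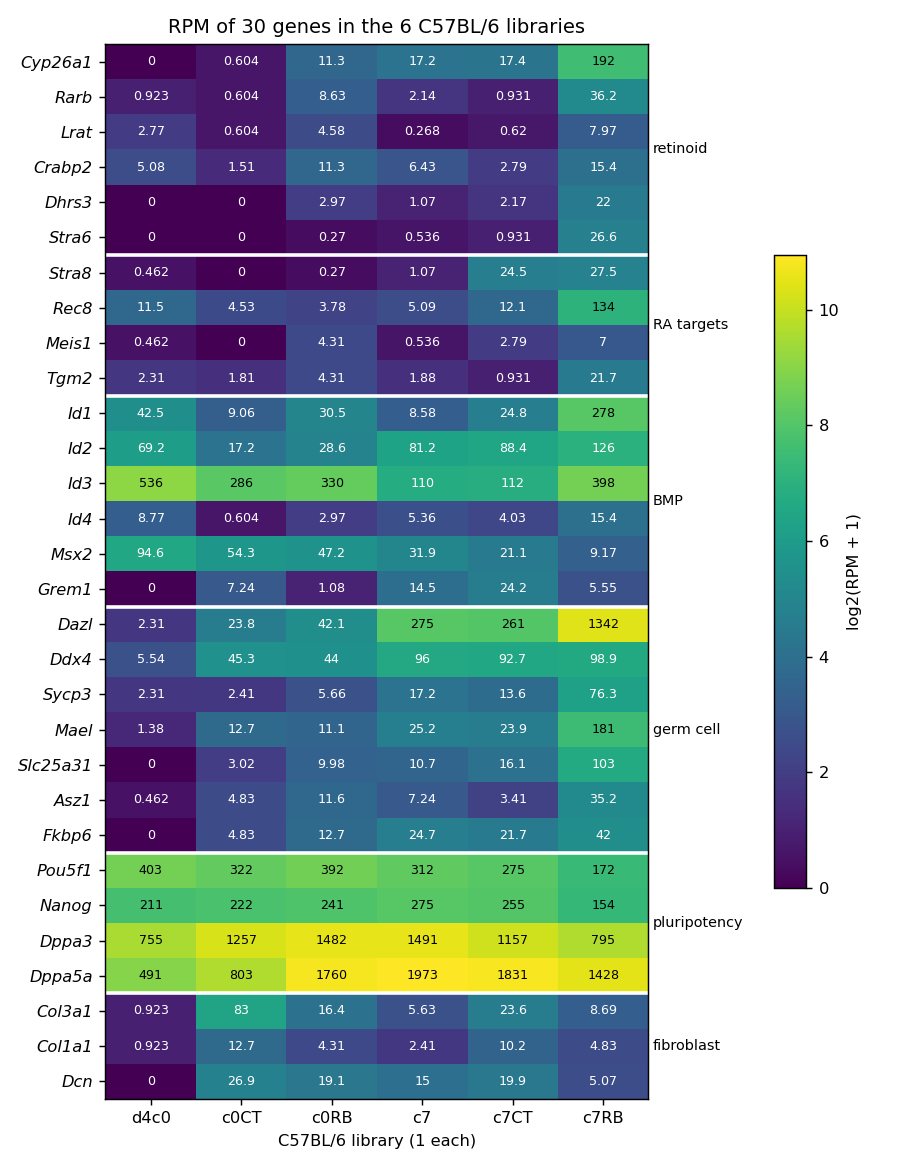
RPM of 30 genes (rows, grouped by role) in the 6 C57BL/6 libraries (columns, 1 library each), with colour for log2(RPM + 1). Cyp26a1, Rarb and Crabp2 are higher in c0RB than in c0CT while Stra8 and Rec8 are not, and most germ cell genes are highest in the library labelled c7RB.

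Genes outside these lists led the early difference among those with at least 20 RPM. Mdk, a secreted heparin-binding growth factor known to respond to retinoic acid, was at 51.7, 24.5, 151, 54.4, 50.2 and 295 RPM from d4c0 to the library labelled c7RB. Its early ratio was 6.18 (4.89 to 7.90) on 81 and 560 reads. It was highest in both RB libraries.

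Sprr1a, an envelope protein of squamous epithelium, was at 3.32 RPM in c0CT and 28.3 in c0RB, a ratio of 8.53 (4.58 to 17.6). Ly6a, a surface antigen also called Sca-1, was at 3.62 and 24.5 RPM, a ratio of 6.77 (3.70 to 13.6). Dusp9, a phosphatase that acts on MAP kinases, was at 26.3 and 84.4 RPM, a ratio of 3.21 (2.53 to 4.12). Cd97, an adhesion receptor, was at 19.9 and 66.1 RPM, a ratio of 3.32 (2.52 to 4.42). Mgst1, Ddah2 and S100a13 completed the genes at the head of this order, with ratios of 3.54, 3.22 and 2.95. Dppa5a, a pluripotency-associated gene, was the only one of 24 pluripotency genes past the fold, at 803 RPM in c0CT and 1760 RPM in c0RB.

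Of 16 BMP targets kept, 3 were higher in c0RB and 1 lower (all genes 3.04% and 4.35%), with a median of 0.20 against -0.14 over all genes. Id1 (Entrez 15901, chr2:152736251-152737410), an inhibitor of differentiation factors, was at 42.5 RPM in d4c0, 9.06 in c0CT, 30.5 in c0RB, 8.58 in c7, 24.8 in c7CT and 278 in the library labelled c7RB. The early ratio was 3.36 (2.23 to 5.22) on 30 and 113 reads. Both day 2 libraries lay below day 0.

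The other Id genes were closer. Id2 was at 69.2 RPM in d4c0, 17.2 in c0CT and 28.6 in c0RB, a ratio of 1.66 (1.19 to 2.33). Id3 was at 536, 286 and 330 RPM, a ratio of 1.15 (1.06 to 1.26), and Id4 had 2 and 11 reads in the pair, a ratio of 4.91 (1.07 to 45.6). Msx2, a homeobox target of BMP, was at 54.3 and 47.2 RPM, and Gata2 at 115 and 120 RPM. Grem1, a secreted BMP antagonist, was the lower member, at 7.24 and 1.08 RPM. Of 16 BMP receptors and Smads kept, 0 were higher and 1 lower (all genes 3.04% and 4.35%), Acvr2a, an activin receptor, at 9.96 and 4.31 RPM.

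Genes of germ cell function and of the piRNA pathway were higher in c0RB at 5 of 23 members kept and lower at 0. Over all genes 3.04% were higher and 4.35% lower. The median was 0.46 against -0.14 over all genes. Slc25a31, a carrier of nucleotides in germ cell mitochondria, was at 3.02 and 9.98 RPM, a ratio of 3.31 (1.61 to 7.45). Fkbp6 and Asz1, which act in transposon silencing, were at 4.83 RPM each in c0CT, and at 12.7 and 11.6 RPM in c0RB. Gtsf1 and Tex101, the remaining 2, stood at 2.16 and 1.08 RPM in c0RB, and both were kept through the library labelled c7RB alone.

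The main germ cell regulators did not pass the fold. Dazl, an RNA-binding protein gene that licenses gametogenesis, was at 23.8 and 42.1 RPM, a ratio of 1.76 (1.34 to 2.34). Ddx4, a germ cell RNA helicase gene, was at 45.3 and 44.0 RPM, a ratio of 0.971 (0.773 to 1.22). Of 27 meiotic prophase genes kept, 1 was higher (Syce1, of the synaptonemal complex, at 2.11 and 7.28 RPM) and 0 lower, with a median of -0.07. This is near the 3.04% of all genes higher and 4.35% lower. Pou5f1 (322 and 392 RPM), Nanog (222 and 241 RPM) and Dppa3 (1257 and 1482 RPM) differed by 0.29, 0.12 and 0.24 on the log2 scale.

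The collagen gene Col3a1 was at the head of the genes lower early among those with at least 20 RPM. Col3a1 was at 0.923 RPM in d4c0, 83.0 in c0CT, 16.4 in c0RB, 5.63 in c7, 23.6 in c7CT and 8.69 in the library labelled c7RB. It was 5.05-fold lower in c0RB than in c0CT (3.81 to 6.77). Of 13 fibroblast and feeder genes kept, 3 were lower (Col1a1, Col3a1 and Col5a1) and 0 higher, against 4.35% and 3.04% of all genes. Col5a1 was low, at 2.11 RPM in c0CT and 0.539 RPM in c0RB, and was kept through c7CT alone. Col1a2, not past the fold, was at 1.81 and 2.43 RPM in the pair. The summed level of all 18 list members was 1426 RPM in c0CT and 1340 RPM in c0RB, most of it from genes that many cells express, among them Fn1 (521 and 329 RPM), Vim (229 and 243 RPM), Sparc (261 and 247 RPM) and Lgals1 (247 and 438 RPM). Dcn, a proteoglycan of connective tissue, was at 0 RPM in d4c0, 26.9 in c0CT and 19.15 in c0RB, Timp1 at 32.9 and 31.0 RPM in the pair and S100a4 at 4.53 and 7.55 RPM. Lum was at 0 and 0.270 RPM in c0CT and c0RB, and Thy1 and Postn at 0 in both. The libraries are bulk, so fewer feeder cells and less collagen RNA per cell cannot be told apart.

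The other genes lower in c0RB were of several kinds. Ptch1, the receptor of hedgehog, was at 28.1 RPM in c0CT and 8.09 in c0RB, 3.47-fold lower (2.28 to 5.43). Rtp4, an interferon-inducible gene, was at 33.5 and 10.52 RPM, and Lhx1, a homeobox gene of mesoderm, at 38.3 and 14.0 RPM. Nid1, a basement membrane protein gene, was at 26.9 and 8.36 RPM, and Btbd11 at 30.2 and 9.44 RPM. Dnmt3b, a de novo DNA methyltransferase, was at 14.49 and 4.85 RPM, 2.99-fold lower (1.70 to 5.45). Cdkn1c, an inhibitor of cyclin-dependent kinases, was at 13.9 and 3.24 RPM, 4.29-fold lower (2.24 to 8.90).

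Most of the remaining lists are given here by their early counts, which are read against 3.04% of all genes higher and 4.35% lower. Of 17 early PGC genes, 0 were past the fold either way, among them Kit, the receptor of stem cell factor (309 and 224 RPM). Of 20 cell cycle genes 1 was higher, the cyclin gene Ccnd1 (0 and 2.97 RPM), and 0 were lower. Of 14 genes that silence germline genes 1 was lower, the histone demethylase gene Kdm5c (50.1 and 22.7 RPM). Male germ cell genes were lower at 3 of 11 members (Dnmt3l, Cdkn1c and Cdkn2b), and primed epiblast genes at 2 of 6 (Dnmt3b and Sfrp2). Of these, Dnmt3l (3.62 and 0.270 RPM), Cdkn2b (3.02 and 0.539 RPM) and Sfrp2 (4.23 and 0.539 RPM) were low in the pair. They were kept through the later cultures. Mesoderm and somatic lineage genes were higher at 2 of 11 and lower at 3, Lhx1, Pax6 (26.3 and 12.4 RPM) and Nes (16.6 and 5.12 RPM). Of 8 genes of the DNA methylation machinery, Tet2, which oxidizes methylated cytosine, was higher (2.72 and 7.01 RPM), and Dnmt3b and Dnmt3l were lower. Of 4 antigen presentation genes, Psmb10 was higher (0.906 and 5.12 RPM) and B2m lower (76.1 and 30.2 RPM). Of 8 stress response genes, 0 were past the fold.

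The 129S1:C57BL/6 line gives a separate comparison, with no shared libraries, of RB against CT at day 5, 2 days after the start that the labels state. There 84 of the genes kept (0.745%) were higher in both RB libraries than in both CT libraries with a gap of at least 1, and 32 (0.284%) were lower. Of the 84 genes, 29 were also past the fold early in the C57BL/6 line in the same direction (34.5% of the 84 and 8.45% of the 343, against 3.04% of all genes), and 4 were past it in the opposite direction. Of the 32 genes, 8 were lower in c0RB (25.0% against 4.35%) and 0 higher. Leaving out a replicate makes the rule looser: without replicate 1, 459 genes were higher, 14.2% of them also early, and without replicate 2, 308 genes were higher, 23.7% of them also early.

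Single genes differed in size between the lines. At day 5 in the 129S1:C57BL/6 line, Cyp26a1 was at 0 and 0.367 RPM in CT and at 33.1 and 47.8 RPM in RB. Mdk was at 37.7 and 37.8 RPM in CT and at 276 and 281 RPM in RB. Id1 was at 3.30 and 4.71 RPM in CT and at 30.6 and 44.4 RPM in RB. In each of these the RB libraries lay above the CT libraries, as c0RB lay above c0CT.

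Stra8 was different. At day 5 in the 129S1:C57BL/6 line it was at 0 and 0.367 RPM in CT and at 44.6 and 67.9 RPM in RB, while c0RB had 0.270 RPM. Dazl was already at 201 and 269 RPM in those CT libraries, where c0CT had 23.8 RPM. Ly6a overlapped between the groups there, at 5.501 and 12.3 RPM in CT and at 10.497 and 12.6 RPM in RB of the 129S1:C57BL/6 line. Line, day and start of the factors differ between these comparisons, and the difference between the lines was not tested.

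**Figure D4:**
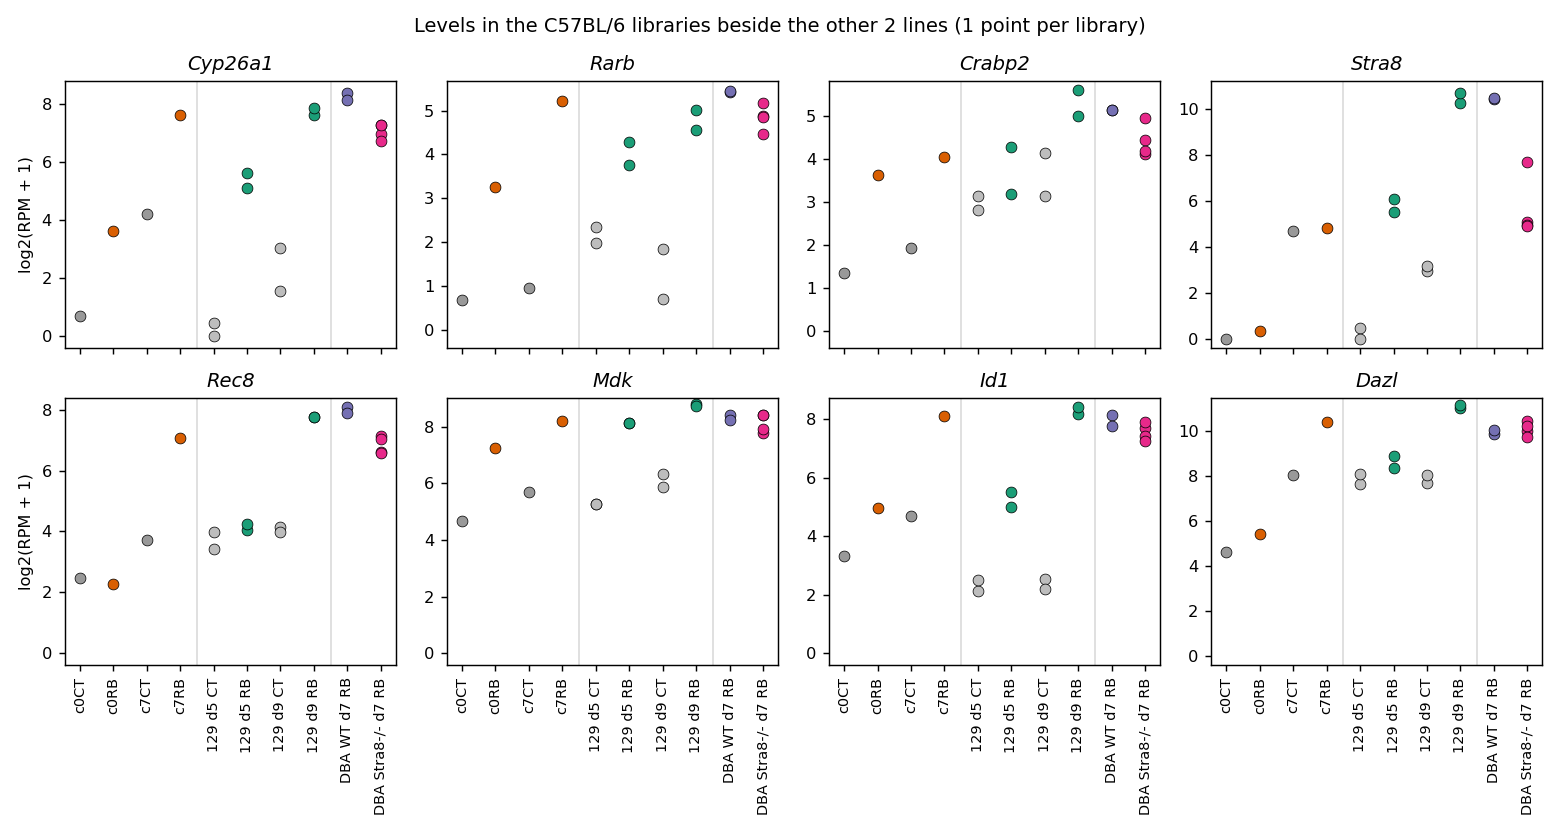
Levels of 8 genes as log2(RPM + 1) (y axis, 1 point per library) in the C57BL/6 pairs, in the 129S1:C57BL/6 line at days 5 and 9 (129) and in the DBA/2:C57BL/6 line at day 7 under RB (DBA). Cyp26a1, Rarb and Id1 are higher in c0RB than in c0CT and in RB than in CT at day 5, while Stra8 is high at day 5 under RB (44.6 and 67.9 RPM) and not in c0RB (0.270 RPM).

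Culture without the factors can be followed over 4 libraries, which the early and late pairs partly share. From d4c0 to c0CT, 1113 genes were higher (9.87%) and 567 lower (5.03%). That split depended on scaling, with 811 higher and 814 lower after the medians were set equal. From d4c0 to c7, 1429 were higher (12.7%) and 926 lower (8.21%), and from c7 to c7CT 431 were higher (3.82%) and 196 lower (1.74%). The last step, at 5.56% in all, was within the 3.26% to 12.51% of the 19 replicate pairs.

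Germ cell genes were higher later in this time course. Dazl was at 2.31 RPM in d4c0, 23.8 in c0CT, 275 in c7 and 261 in c7CT, and Ddx4 at 5.54, 45.3, 96.0 and 92.7 RPM. Both were level between day 7 and day 9. Of 23 germ cell and piRNA genes kept, 17 were higher in c7 than in d4c0 and 2 were lower (all genes 12.7% and 8.21%). Of 16 BMP targets, 1 was higher and 8 lower in c0CT than in d4c0 (all genes 9.87% and 5.03%). In c7, 2 were higher and 6 lower (all genes 12.7% and 8.21%). Id1 stayed below day 0 in each of these cultures, whereas Id2 was at 81.2 RPM in c7 and 88.4 RPM in c7CT, above the 69.2 RPM of d4c0.

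The methyltransferase cofactor Dnmt3l and its partner Dnmt3b stood out in the later cultures. Dnmt3l was at 0.923 RPM in d4c0, 3.62 in c0CT, 133 in c7 and 245 in c7CT, and Dnmt3b at 3.23, 14.49, 64.3 and 144 RPM. Fgf4, a growth factor of pluripotent cells, was at 0, 0.302, 22.2 and 48.7 RPM. At day 9 under CT in the 129S1:C57BL/6 line, Dnmt3l was at 6.43 and 7.44 RPM, Dnmt3b at 23.3 and 24.4 RPM and Fgf4 at 0.643 and 4.204 RPM. All 3 were higher in c7CT than in either 129S1:C57BL/6 library.

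Stra8 was at 24.5 RPM in c7CT, where c7 had 1.07 RPM, a ratio of 22.9 (8.58 to 85.9) on 4 and 79 reads with no RB in the label. At day 9 under CT the 129S1:C57BL/6 line had 6.75 and 8.08 RPM. Smooth muscle actin Acta2, a fibroblast marker, also differed between c7 and c7CT, at 1.34 and 34.7 RPM, as did Col3a1, at 5.63 and 23.6 RPM. The part of feeder cells in these values was not tested.

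In the late pair, 1671 genes were higher in the library labelled c7RB (14.8%) and 696 were lower (6.17%), 21.0% in all. With medians set equal, 1247 were higher and 1036 lower, and with quantile normalization 1282 and 1312. Of the 2367 genes past the fold, 31 (1.31%) differed by as much between the library labelled c7RB and the SK2 library of Stra8-/- at day 7. The values below are therefore set beside the 4 Stra8-/- libraries of day 7 under RB for the genes the late pair turns on.

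The late counts of lists below stand against 14.8% of all genes higher, 6.17% lower and a median of 0.16. Some members reached 5 RPM in the library labelled c7RB alone, so they could be kept only by being high there. They are named with each list. Retinoid genes were higher at 9 of 16 members and lower at 1. Of the higher members, Dhrs3, Cyp26b1, Stra6 and Lrat were kept through the library labelled c7RB alone. Cyp26a1 was at 17.4 RPM in c7CT and 192 in the library labelled c7RB, a ratio of 11.0 (8.42 to 14.8), and at 105 to 154 RPM in the 4 Stra8-/- libraries. Rarb was at 0.931 and 36.2 RPM, a ratio of 38.9 (13.1 to 191) on 3 reads in c7CT, and at 21.1 to 35.2 RPM in the Stra8-/- libraries. Stra6, the receptor that takes up retinol, was at 0.931 and 26.6 RPM, and Cyp26b1 at 0 and 13.52 RPM, at least 14.53-fold higher against 3 reads per library. The lower member was Aldh1a2, which makes retinoic acid, at 7.75 and 2.17 RPM.

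All 7 Hox genes kept were higher in the library labelled c7RB, by a median of 3.41. Hoxb1 was at 0 and 9.66 RPM, at least 10.4-fold higher against 3 reads per library, and at 2.69 to 11.7 RPM in the Stra8-/- libraries. In wild type at day 7 under RB, Hoxb1 was at 4.34 and 6.80 RPM, within the range of the Stra8-/- libraries.

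Of 16 BMP targets, 7 were higher and 3 lower (all genes 14.8% and 6.17%). Zfp503, Hand1 and Tbx3 among the higher were kept through the library labelled c7RB alone. Id1 was at 24.8 and 278 RPM, a ratio of 11.2 (8.93 to 14.2), and Id3 at 112 and 398 RPM, a ratio of 3.56 (3.18 to 4.01). Id1 was at 153 to 239 RPM in the Stra8-/- libraries, below the library labelled c7RB, and at 217 and 282 RPM in wild type at day 7 under RB. Id3 was at 263 to 384 RPM in Stra8-/- and at 374 and 380 RPM in wild type, below the library labelled c7RB in both. Id2, already at 88.4 RPM in c7CT, was at 126 RPM, a ratio of 1.43 (1.23 to 1.65). Msx2 was lower, at 21.1 and 9.17 RPM, and at 4.63 to 10.9 RPM in the Stra8-/- libraries against 14.1 and 21.7 RPM in wild type.

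Meiotic genes were higher at 19 of 27 members and lower at 0 (all genes 14.8% and 6.17%), with a median of 1.68 against 0.16. Sycp2, Taf7l, Tex11 and 4930528F23Rik among them were kept through the library labelled c7RB alone. Rec8 was at 12.1 and 134 RPM, and at 95.1 to 142 RPM in the Stra8-/- libraries against 236 and 274 RPM in wild type at day 7. Sycp3, of the synaptonemal complex, was at 13.6 and 76.3 RPM, and at 59.2 to 102 RPM in Stra8-/- against 192 and 228 RPM in wild type. Smc1b, a meiotic cohesin subunit, was at 22.95 and 181 RPM, and at 128 to 193 RPM in Stra8-/- against 450 and 513 RPM in wild type. At each of these 3 genes the library labelled c7RB lay within the Stra8-/- range and below wild type, and Stra8 differed from c7CT by a ratio of 1.12 (0.836 to 1.52).

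Germ cell and piRNA genes were higher at 16 of 23 members and lower at 1 (all genes 14.8% and 6.17%). Piwil4, Gtsf1 and Tex101 among the higher were kept through the library labelled c7RB alone. Dazl was at 261 and 1342 RPM, a ratio of 5.13 (4.77 to 5.53), while Ddx4 was at 92.7 and 98.9 RPM, a ratio of 1.06 (0.915 to 1.24). Dazl was at 841 to 1392 RPM in the Stra8-/- libraries and at 944 and 1062 RPM in wild type at day 7 under RB. Ddx4 was at 98.7 to 166 RPM in Stra8-/- and at 164 and 239 RPM in wild type. At day 9 in the 129S1:C57BL/6 line Ddx4 was at 55.0 and 63.4 RPM in CT and at 362 and 444 RPM in RB. Zglp1, a zinc finger gene of germ cells, was at 0.620 and 31.1 RPM, and Piwil4, of the piRNA pathway, also at 0.620 and 31.1 RPM.

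Genes lower in the library labelled c7RB included Fgf4 and Dnmt3l, which were high in c7 and c7CT. Fgf4 was at 48.7 and 2.66 RPM, 18.3-fold lower, and Dnmt3l at 245 and 24.6 RPM, 9.94-fold lower. In the Stra8-/- libraries Dnmt3l was at 13.3 to 27.4 RPM. Tmsb4x, an actin-binding peptide gene, was at 252 and 22.4 RPM, and Mt2, a metallothionein, at 740 and 88.6 RPM. Ifitm3, an interferon-induced membrane protein gene of early PGCs, was at 684 and 274 RPM, whereas Kit was at 164 and 436 RPM. Pou5f1 (275 and 172 RPM) and Nanog (255 and 154 RPM) did not pass the fold, and of 24 pluripotency genes 3 were lower and 2 higher. Of 13 fibroblast and feeder genes 7 were lower and 0 higher, with summed levels of the list of 1168 and 1074 RPM. Among the lower, Col1a2, Col5a1 and Tagln reached 5 RPM in c7CT alone, so they could be kept only by being high there.

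Beside the 129S1:C57BL/6 line at day 9, where RB had been given since day 3, 1697 of the genes kept were higher in RB (15.0%) and 880 lower (7.80%). Of the 1697 genes, 646 were past the fold late (38.1% of them and 38.7% of the 1671, against 14.8% of all genes), and 93 early (5.48%, against 3.04%), while 91 were past the fold early in the opposite direction. Of the 880 genes, 182 were lower late (20.7%, against 6.17%) and 47 early (5.34%, against 4.35%). The early share of the genes lower at day 9 was thus near its background.

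Of the 343 genes higher early, 154 were also higher late, which is 44.9% of the early and 9.22% of the late genes, against 14.8% of all genes higher late, and 23 were lower late. Of the 491 genes lower early, 53 were lower late (10.8% of the early and 7.61% of the late genes, against 6.17% of all genes), and 113 were higher late, against 14.8% of all genes. The pairs share no library. The late minus the early difference was at least 1 for 2462 genes (21.8%) and at most -1 for 861 (7.63%), and with medians set equal for 1450 and 1673. Genes higher in both included Cyp26a1, Rarb, Crabp2, Dhrs3, Mdk, Dusp9, Sprr1a and Id1. Ly6a was higher early and not late, with 9.93 RPM in c7CT and 9.41 RPM in the library labelled c7RB. Rec8 was past the fold late and not early, and Dazl was at ratios of 1.76 early and 5.13 late. The difference between the times cannot be told apart from the content of the library labelled c7RB.

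**Figure D5:**
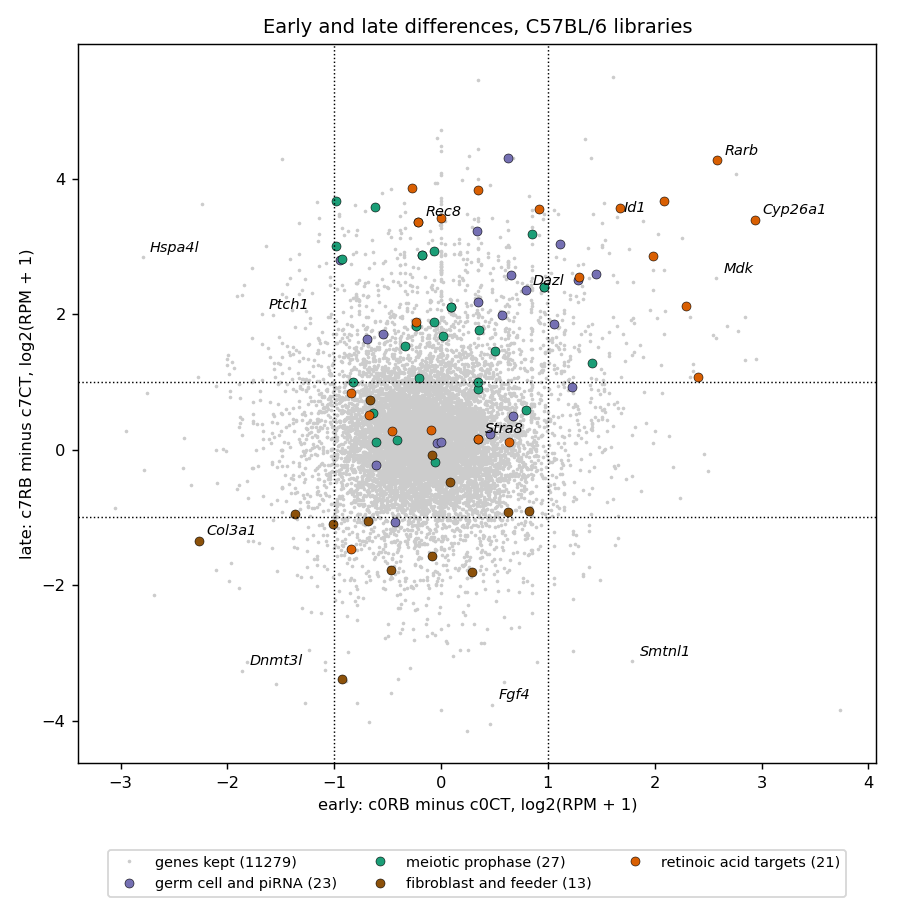
Early (x axis, c0RB minus c0CT) and late (y axis, library labelled c7RB minus c7CT) differences of log2(RPM + 1) for the 11279 genes kept, with members of 4 lists in colour (a gene in 2 lists shows the colour drawn last) and dotted lines at 1 and -1. Retinoic acid targets such as Rarb and Cyp26a1 lie to the upper right, whereas most meiotic genes lie above 1 on the late axis and between the lines on the early axis.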

How the data were processed

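Values are the authors' deposited signal per gene, in RPM per the labels, with 26218 genes and 96 spike-in rows in 75 libraries. Alignment and trimming tools are, per the submitters' processing notes, Bowtie 1.0.1, TopHat 1.4.1, Cufflinks 2.2.0 and cutadapt 1.11, and the build is mm10. Reads were not analysed here. Values under 0.001 RPM were set to 0. Depth was estimated from the RPM of 1 read (91.7% to 94.5% of low values were whole reads within 0.05). Differences are of log2(RPM + 1) between single libraries, computed with pandas 2.3.3 and numpy 2.4.6. A gene is past the fold at an absolute difference of 1. Intervals (95%) are exact, conditional on the reads of both libraries (scipy 1.17.1), and cover counting error only. Coordinates are RefSeq's for GRCm38.p6.

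Named genes are 18 fixed genes, the 10 largest differences each way of at least 20 RPM early and late (5 for other comparisons), and up to 6 members per list. Not every gene under this rule is described; Blvrb, Lrat, Meis1 and list members given with a count were added after their values were seen. The libraries and the 25 lists were chosen with earlier results of these data known. Alternatives were another pseudocount, filter, fold limit or scaling. Results for some genes are not reported here.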

Additional observations from a re-analysis of the deposited data

Results flagged for a closer look

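Of the named genes, 9 were past the fold in opposite directions early and late. The difference between the times was not tested, since each library is single, and the late value rests on the library labelled c7RB. Lower early and higher late, with the late minus the early log2 difference, were Ptch1 (3.68), Lrrc8c (2.81), Pax6 (2.27), Igsf5 (5.78), Hspa4l (5.63), Mmrn2 (4.82), Cdkn2b (2.90) and Acvr2a (2.22). Smtnl1 was higher early and lower late (-4.92). Hspa4l, a heat shock protein gene, was at 19.02 RPM in c0CT, 1.89 in c0RB, 2.48 in c7CT and 23.9 in the library labelled c7RB, and at 18.4 to 25.9 RPM in the Stra8-/- libraries of day 7. Ptch1 was at 34.1 RPM in c7CT and 139 in the library labelled c7RB, and at 69.5 to 147 RPM in the Stra8-/- libraries. In groups of 1 library no library can be set apart from its group.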

How the results depend on the processing

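Of 119 alternative values of the counts and shares, 49 stayed within the limit for a move (1.5 times for counts) and 70 moved; the cause was not tested. Which direction held more genes did change: from lower to higher early with medians set equal, with quantile normalization (383 and 359) and at a log2 limit of 2, and from higher to lower for late minus early under both scalings and late with quantile normalization (1282 and 1312). From d4c0 to c0CT more genes were higher, but more were lower with medians set equal (811 and 814). Quantile normalization did the same there (691 and 715). Counts are higher and then lower genes. With a pseudocount of 0.1 RPM there were 603 and 750 early and 384 lower from c7 to c7CT. With 5 RPM there were 54 and 101 early, 995 and 353 late, 468 lower for late minus early, 445 and 207 from d4c0 to c0CT, 735 and 485 from d4c0 to c7, and 71 and 21 from c7 to c7CT. With no filter there were 693 and 758 early, 1059 lower late, 1560 lower for late minus early, 918 lower from d4c0 to c0CT, and 830 and 393 from c7 to c7CT. With a filter of 20 RPM there were 97 and 176 early, 795 and 371 late, 1395 and 453 for late minus early, 578 and 222 from d4c0 to c0CT, 758 and 430 from d4c0 to c7, and 103 and 53 from c7 to c7CT. With medians set equal there were 562 and 284 early, and 1450 and 1673 for late minus early. With quantile normalization 1312 were lower late, 1587 and 1645 passed for late minus early, 691 were higher from d4c0 to c0CT and 330 lower from c7 to c7CT. At a log2 limit of 2 there were 32 and 20 early, 454 and 112 late, 636 and 153 for late minus early, 211 and 71 from d4c0 to c0CT, 427 and 209 from d4c0 to c7, and 45 and 10 from c7 to c7CT. With 20 RPM in the higher of the 2 libraries, chosen after seeing the data, there were 35 and 123 early, 776 and 313 late, 392 and 181 from d4c0 to c0CT, 540 and 386 from d4c0 to c7, and 42 and 26 from c7 to c7CT.

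With a gap of 2 in the 129S1:C57BL/6 line, 54.5% of 11 genes higher at day 5 were higher early, 0% of 2 lower genes were lower early and 50% late, and 8.90% of 517 genes higher at day 9 were higher early. Leaving out 1 replicate of that line gave 14.2% to 23.7% of the genes higher at day 5 and 16.3% to 17.7% of those lower. For single named genes, 412 of 486 alternative values moved by less than 0.46. A reversal was counted only where the main difference was at least 1 either way, and none was found. Changes of sign in smaller differences were not counted. No paired analysis was possible because each C57BL/6 group has 1 library. A count of 0 allows up to 3 reads, 0.724 to 1.38 RPM. The late results rest on the library labelled c7RB, and no late value can be formed without it.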
